A study of Rattus norvegicus with 34 samples.

Results

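The windows described here are stretches of 1 kb in the rat genome whose sperm DNA methylation signal lay away from the control in the same direction in 2 successive generations descended from ifosfamide-treated males. They were selected on measured values. The mean signal of the 6 F1 control pools had to be at least 0.5 RPKM (reads per kilobase of window, scaled to library depth), and the means of the F1 ifosfamide pools and of the F2 ifosfamide pools both had to be at least 1.4 times that mean or both at most 0.71 times it. Of the 743101 windows of chromosomes 1 to 20 that reached 0.5 RPKM in the control, 936 (0.126%) were higher in both generations and 1515 (0.204%) were lower in both. The 2451 windows were taken from 2782040 windows in all, 2618741 of them on chromosomes 1 to 20. The directions are treated apart throughout.

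The study injected pubertal males of an outbred Sprague Dawley strain (Hsd) with 8.5 mg/kg ifosfamide, an alkylating chemotherapy drug, or with 1.1 mL/kg phosphate-buffered saline on days 26, 29 and 32 of age. These F0 founders, 5 ifosfamide males and 3 control males per the labels' protocols, were the only animals injected. Methylated DNA immunoprecipitation sequencing (MeDIP-seq) was run on sperm pooled from several males. The first group is the F1 ifosfamide lineage, the sons of injected males, with 6 pools of 3 to 4 males. The next is the F2 ifosfamide lineage, with 6 pools of 8 to 9 males bred from unrelated F1 parents of that lineage aged 80 to 90 days. The control is the F1 control lineage, the sons of saline-injected males, with 6 pools of 3 to 4 males. Both ifosfamide groups were set against these same 6 F1 control pools. Any deviation of these controls therefore enters both shifts, and for F2 the lineage and the generation cannot be told apart. The labels list 43 F2 ifosfamide males, while 6 pools of 8 to 9 would hold 48 to 54, so some males may stand in more than 1 pool. They also list 25 F1 control males, while 6 pools of 3 to 4 would hold 18 to 24. Sperm were released from the cauda epididymis, and somatic cells were removed by sonication and washing. Sperm purity was not checked here, since MeDIP windows carry no expressed markers and no annotation was used to look up imprinted genes.

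In MeDIP an antibody against methylated cytosine pulls down single-stranded DNA fragments, so the read density over a window follows its methylation together with its density of CpG sites and its copy number. Mature sperm carry a highly methylated genome that is set during germ cell development, apart from CpG-rich regulatory regions. Most of that pattern is erased in the early embryo and rebuilt in the germ line, with imprinted genes and some repeats escaping part of the erasure.

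Total window counts were 25531658 to 39440265 in F1 ifosfamide pools, 27424144 to 36309987 in F2 ifosfamide pools and 23336048 to 34051679 in F1 control pools. Reads were on average counted in 1.16 to 1.25 windows each, so adjacent windows share reads. Within F1 ifosfamide, the counts of pools 1 and 2 were most alike, at a chi-square over degrees of freedom of 1.06. The other pairs within groups spanned 1.04 to 1.54, and some F2 ifosfamide pairs, such as pools 5 and 6 at 1.04, were more alike. Averaged and counted as 1 pool, F1 ifosfamide pools 1 and 2 left 704 higher and 1549 lower windows. No other pair was merged.

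Windows higher in both generations were weakly covered places with moderate shifts. Their median signal was 0.929 RPKM in F1 ifosfamide pools, 0.917 RPKM in F2 ifosfamide pools and 0.60 RPKM in control pools. The median ratio to control was 1.49 in F1 and 1.48 in F2, and the largest ratios were 2.53 in F1 and 2.87 in F2. Windows lower in both generations had medians of 0.387 RPKM in F1 ifosfamide, 0.382 RPKM in F2 ifosfamide and 0.590 RPKM in control pools, with median ratios of 0.661 in F1 and 0.657 in F2. The lowest ratios were 0.271 in F1 and 0.154 in F2. These ratios chose the windows and are a description. Over all windows that reached the control minimum, the median ratios were 1.02 in F1 and 0.992 in F2, at a median control signal of 0.812 RPKM.

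Many windows lay at the limits of the rule. The smaller of the 2 ratios was 1.4 to 1.42 in 271 of the higher windows, and a further 343 windows stood just outside, at 1.38 to 1.4. Among lower windows the larger ratio was 0.69 to 0.71 in 604, and a further 871 windows stood just outside, at 0.71 to 0.73. The counts behind the ratios were small. A higher window held a median of 15 counts per control pool and a lower window 14, against 19 for all windows over the minimum. Summed over 6 pools, the median higher window held 154 counts in F1 ifosfamide, 140 in F2 ifosfamide and 85 in control, and the median lower window held 63, 59 and 83 in the same groups. Counting error by itself gave these log2 ratios a median standard error of 0.19 in F1 and 0.20 in F2 for higher windows, and of 0.24 and 0.25 for lower windows. Reads without molecular identifiers are not independent molecules, so these errors cover counting only.

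Membership was most frequent at the lowest control signal. In windows with a control mean of 0.5 to 0.6 RPKM, 0.306% were higher and 0.528% lower in both generations. From 1 to 2 RPKM these shares were 0.0326% and 0.0242%, and from 2 to 5 RPKM 0.0165% and 0.0103%. Of the higher windows, 725 (77.5%) had a control mean under 0.75 RPKM, and so did 1259 (83.1%) of the lower windows, against 42.9% of all windows over the minimum. Strongly covered windows were few, with 79 higher windows (8.44%) and 55 lower windows (3.63%) at 1 RPKM or more. At 5 RPKM or more the share of higher windows was larger again, at 0.175%, which is 5 windows of 2850, and 1 window was lower (0.0351%). All 5 lay in the chromosome 1 and chromosome 14 clusters described further on.

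**Figure D1:**
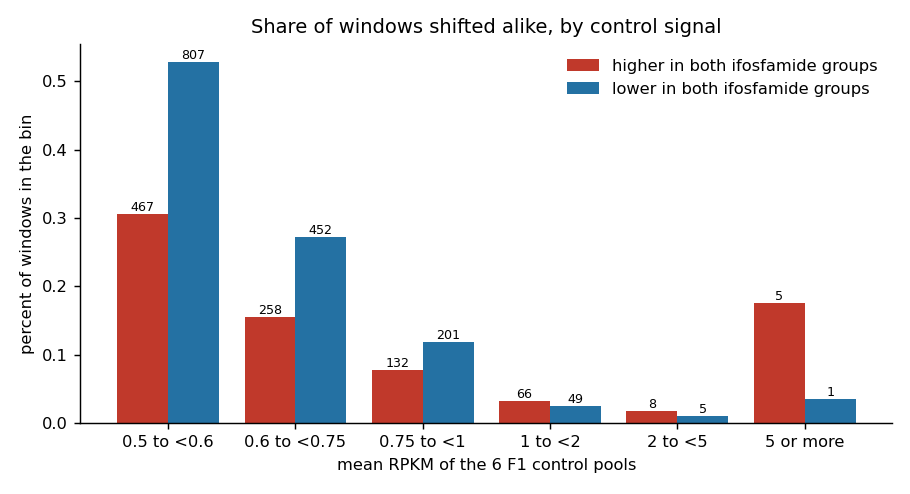
Percent of windows that were members, in bins of the mean RPKM of the 6 F1 control pools, for windows higher (red) and lower (blue) in both ifosfamide groups, with the number of windows above each bar. Both shares fall with control signal, to 0.0165% and 0.0103% at 2 to 5 RPKM, and the bar at 5 RPKM or more stands for 5 higher and 1 lower windows.

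Pools of the ifosfamide groups mostly lay on the same side of the control mean, but seldom beyond every control pool. At least 11 of the 12 ifosfamide pools lay above the control mean in 768 higher windows (82.1%), and at least 11 lay below it in 1358 lower windows (89.6%). All 12 did so in 403 higher windows (43.1%) and 824 lower windows (54.4%). The rule favours such agreement and the share over all windows was not computed, so nothing is read from these counts. All 6 F1 ifosfamide pools lay above all 6 control pools in 62 higher windows (6.62%), where 0.185% of all windows over the minimum did, and all 6 F2 ifosfamide pools did so in 83 (8.87%), where 0.186% did. Below all control pools lay the F1 ifosfamide pools of 88 lower windows (5.81%; 0.133% of all windows) and the F2 ifosfamide pools of 91 (6.01%; 0.249% of all windows). All 12 ifosfamide pools were beyond all control pools in 12 higher windows (1.28%; 33 windows or 0.00444% of all) and in 17 lower windows (1.12%; 24 windows or 0.00323% of all). The rule used these same pools, so nothing is read from the difference to the background.

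Of the windows in which the pools stood fully apart, the 8 of each direction with the largest shifts, ranked by the smaller of the 2 generations' shifts, are given first. On chromosome 7 at 61898001 to 61899000 (Rnor_6.0 coordinates, counted from 1), the signal was 2.07 RPKM in the lowest, 2.47 in the median and 2.85 in the highest F1 ifosfamide pool. It was 1.78, 2.37 and 3.14 RPKM in the same order in F2 ifosfamide pools, and 0.840, 1.35 and 1.75 RPKM in control pools. The highest control pool was thus just under the lowest F2 ifosfamide pool, and no pools overlapped. Group means were 2.45 ± 0.322 RPKM in F1 ifosfamide, 2.40 ± 0.471 RPKM in F2 ifosfamide and 1.38 ± 0.342 RPKM in control (SD, n = 6 each), from 405, 371 and 194 counts. The F2 ifosfamide and F1 ifosfamide pools differed by a log2 fold change of -0.01 (SE 0.13), with an adjusted p of 0.989 in the edgeR quasi-likelihood test (Benjamini-Hochberg).

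On chromosome 12 at 8210001 to 8211000, F1 ifosfamide pools spanned 1.29 to 2.25 RPKM (median 1.60), F2 ifosfamide pools 1.27 to 1.69 RPKM (median 1.39) and control pools 0.470 to 1.2 RPKM (median 0.980). F2 ifosfamide pools were less spread here than control pools, with SDs of 0.164 and 0.318 RPKM, and the highest control pool reached close to the ifosfamide range. On chromosome 17 at 43009001 to 43010000, the signal was 1.01 to 1.74 RPKM (median 1.32) in F1 ifosfamide, 1.00 to 1.70 RPKM (median 1.09) in F2 ifosfamide and 0.580 to 0.920 RPKM (median 0.720) in control pools. One F2 ifosfamide pool, at 1.70 RPKM, stood well above the other F2 pools. On chromosome 13 at 112412001 to 112413000, F1 ifosfamide pools lay at 0.950 to 2.02 RPKM (median 1.3), F2 ifosfamide pools at 1.14 to 1.47 RPKM (median 1.28) and control pools at 0.75 to 0.890 RPKM (median 0.850). The control pools were tightly grouped and the gap to the lowest F1 ifosfamide pool was small.

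The other 4 higher windows had fewer reads. On chromosome 7 at 31947001 to 31948000, means were 0.937 ± 0.148 RPKM in F1 ifosfamide, 0.978 ± 0.209 RPKM in F2 ifosfamide and 0.558 ± 0.0913 RPKM in control pools, with the lowest ifosfamide pool at 0.720 RPKM and the highest control pool at 0.67 RPKM. On chromosome 13 at 99975001 to 99976000 they were 0.815 ± 0.124, 0.812 ± 0.124 and 0.520 ± 0.117 RPKM in these groups. The 2 windows left, on chromosome 2 from 261649001 and on chromosome 5 from 154109001, had ratios of 1.73 and 1.50 in F1 and of 1.52 and 1.48 in F2. Their lowest ifosfamide pools, at 0.760 and 0.660 RPKM, stood 0.01 and 0.03 RPKM above their highest control pools, so the separation was narrow.

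Among lower windows with no overlap, chromosome 13 at 76218001 to 76219000 had the tightest control. The signal was 0.140 to 0.77 RPKM (median 0.505) in F1 ifosfamide pools, 0.330 to 0.720 RPKM (median 0.385) in F2 ifosfamide pools and 0.780 to 0.840 RPKM (median 0.805) in control pools. The ifosfamide pools were spread over a wide range, up to just under the lowest control pool. On chromosome 1 at 163850001 to 163851000, F1 ifosfamide pools had 0.150 to 0.440 RPKM (median 0.395), F2 ifosfamide pools 0.200 to 0.340 RPKM (median 0.285) and control pools 0.470 to 0.640 RPKM (median 0.525). On chromosome 19 at 42508001 to 42509000, F1 ifosfamide pools had 0.330 to 0.470 RPKM (median 0.420), F2 ifosfamide pools 0.200 to 0.450 RPKM (median 0.390) and control pools 0.560 to 0.700 RPKM (median 0.655). This gap, of 0.09 RPKM between the highest ifosfamide and the lowest control pool, was the widest of the 8 lower windows.

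The values rest on few reads in all 8 lower windows, with 54 to 94 counts over the F1 ifosfamide pools, 43 to 83 over the F2 ifosfamide pools and 77 to 120 over the control pools. On chromosome 3, the window from 117871001 had means of 0.492 ± 0.0755 RPKM in F1 ifosfamide, 0.505 ± 0.125 RPKM in F2 ifosfamide and 0.818 ± 0.110 RPKM in control pools. A window on the same chromosome from 96283001 had 0.473 ± 0.103, 0.413 ± 0.0750 and 0.713 ± 0.118 RPKM in the same groups. The windows on chromosome 2 from 261479001, chromosome 6 from 49693001 and chromosome 11 from 74686001 had ratios of 0.580, 0.666 and 0.67 in F1 and of 0.651, 0.631 and 0.660 in F2. On chromosome 6, 1 F1 ifosfamide pool at 0.310 RPKM lay far below the other F1 pools.

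**Figure D2:**
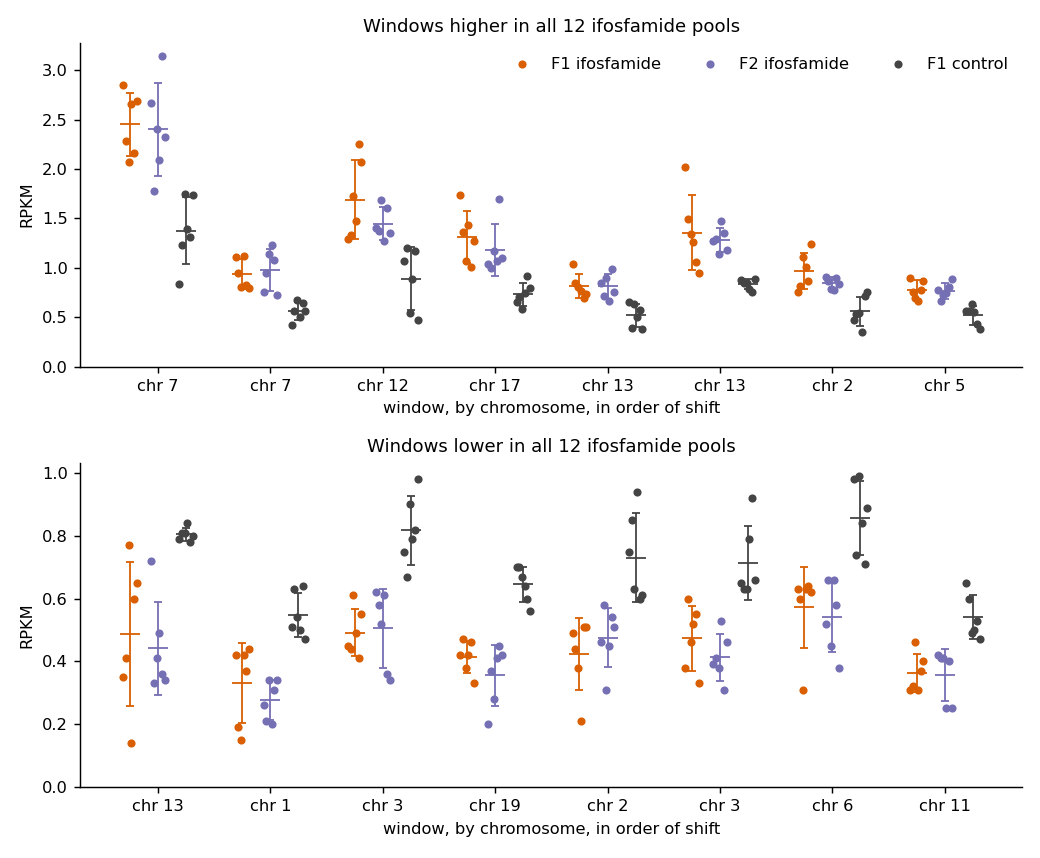
RPKM of each pool (points) with mean and SD (bars, n = 6 pools) in the 8 higher windows (top) and 8 lower windows (bottom) whose 12 ifosfamide pools lay beyond all 6 control pools, each with F1 ifosfamide, F2 ifosfamide and F1 control from left to right. The chromosome 7 window at the far left of the top panel reaches means of 2.45 and 2.40 RPKM against 1.38 RPKM in control, and the lower windows all lie under 1 RPKM.

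The highest signal among members was reached in windows where control pools themselves were widely spread. On chromosome 1 at 11967001 to 11968000, F1 ifosfamide pools had 20.5 to 41.9 RPKM (median 29.2), F2 ifosfamide pools 21.8 to 32.4 RPKM (median 26.5) and control pools 8.91 to 29.5 RPKM (median 17.1). The groups overlapped, and the highest control pool exceeded the median of both ifosfamide groups. The window from 11909001, 58 kb away, had 15.9 to 30.3 RPKM (median 23.5) in F1 ifosfamide, 17.3 to 27.1 RPKM (median 21.7) in F2 ifosfamide and 7.22 to 20.5 RPKM (median 14.02) in control pools. On chromosome 14 at 46646001 to 46647000, F1 ifosfamide pools had 12.9 to 25.0 RPKM (median 18.6), F2 ifosfamide pools 13.0 to 23.8 RPKM (median 17.9) and control pools 7.46 to 25.3 RPKM (median 11.1). Here a control pool was the highest of all 18 pools.

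The 3 lower windows of highest control signal overlapped between groups as well. On chromosome 11 at 90459001 to 90460000, F1 ifosfamide pools had 1.90 to 6.76 RPKM (median 4.15), F2 ifosfamide pools 2.67 to 6.58 RPKM (median 4.79) and control pools 2.84 to 9.57 RPKM (median 8.23). Control pools 1 and 5 lay within the ifosfamide range, and the window stood alone, its counts at least 10-fold those of both neighbours. On chromosome 7 at 73275001 to 73276000, F1 ifosfamide pools were even, at 1.42 to 1.92 RPKM (median 1.68), F2 ifosfamide pools had 1.10 to 2.31 RPKM (median 1.65), and control pools ranged from 1.39 to 5.16 RPKM (median 2.98). Control pools 1, 3 and 4 stood at 4.01 RPKM or more, and the other 3 were at ifosfamide levels. On chromosome 13 at 9321001 to 9322000, F1 ifosfamide pools had 0.790 to 3.08 RPKM (median 1.95), F2 ifosfamide pools 1.10 to 2.57 RPKM (median 1.69) and control pools 1.63 to 3.37 RPKM (median 3.11).

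Some pools set the extremes of a group more often than others. Among higher windows, F1 ifosfamide pool 2 was the highest of its group in 295 (31.5%) and pool 1 in 270 (28.8%), against 18.8% and 20.4% of all windows over the minimum. F2 ifosfamide pool 5 was the highest of its group in 310 higher windows (33.1%), against 21.4% of all. In the same windows F1 ifosfamide pool 5 was the lowest of its group in 300 (32.1%), against 25.7% of all, and control pool 5 was the highest of its group in 257 (27.5%), against 17.8% of all. Among lower windows the ifosfamide pools were more even, each the lowest of its group in 12.7% to 23.1%. Control pool 5 was the highest of its group in 110 lower windows (7.26%), against 17.8% of all windows over the minimum. The median coefficient of variation within a group of pools was 0.248 in F1 ifosfamide, 0.217 in F2 ifosfamide and 0.274 in control pools for higher windows, and 0.307, 0.309 and 0.266 for lower windows. All windows over the minimum had 0.221, 0.210 and 0.225 in these groups.

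Higher windows were unevenly placed along the genome. Chromosome 7 held 1.96 per 1000 windows over the minimum and chromosome 9 held 1.79, against 1.26 over chromosomes 1 to 20, and chromosome 8 held the fewest, 0.839. Of the 83 higher windows on chromosome 7, 23 lay in clusters of members. Without the windows in clusters it held 1.41 per 1000, against 1.19 over chromosomes 1 to 20. Chromosome 9 held a cluster of 7 higher windows. The share of lower windows ranged from 1.66 per 1000 on chromosome 12 to 2.40 on chromosome 11, around 2.04 overall. Of the higher windows, 43 (4.59%) lay in the first or last 2 Mb of a chromosome, and of the lower windows 38 (2.51%), against 2.37% of all windows over the minimum. Of the 43, 22 lay in clusters of members, 19 of these in 2 clusters near the end of chromosome 7. Without the windows in clusters, the share of higher windows near an end was 2.38%. The X chromosome, outside the rule, had 6 windows higher and 34 lower of 13214 over the minimum, and the Y chromosome 0 and 2 of 664.

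Clustering differed between the directions. Another higher window started 2 to 10 kb away from 37 higher windows (3.95%), while 0.830% of other windows over the minimum had a higher window at that distance. For lower windows the shares were 14 (0.924%) and 1.21%. With 1 pool left out in turn the share was 3.23% to 6.82% of higher windows, the highest without control pool 3. It was 0.951% to 2.52% of lower windows, and over 1.5 times the full value without any single one of the control pools, F1 ifosfamide pools 2 or 4 or F2 ifosfamide pool 4. The matching share of other windows was not computed with a pool left out. Of the 37, 31 lay in the 9 clusters with at least 3 members at most 100 kb apart. Without those clusters, 6 of 884 higher windows (0.679%) had such a neighbour, close to the 0.672% of lower windows left when their own clusters were taken out. The clusters were picked by the values themselves, so these shares are a description. Most members stood alone. Merging adjacent windows gave 912 higher regions, 893 of them a single window and the longest 4 windows, and 1502 lower regions, 1489 of them a single window and the longest 2. The 9 higher clusters held 52 windows (5.56%) and the 9 lower clusters 28 (1.85%).

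The cluster with most members lay near the end of chromosome 7, from 145556001 to 145648000, with 14 higher windows in 92 kb. Pool means over its members were 0.719 RPKM in F1 ifosfamide pool 1 and 1.47 to 1.69 RPKM in the other F1 ifosfamide pools, and 0.973 to 1.72 RPKM in F2 ifosfamide pools. Control pools 1, 2, 4 and 6 had 0.451 to 0.630 RPKM, but control pools 3 and 5 had 1.26 and 1.42 RPKM, inside the ifosfamide range. A second cluster near this end, from 145302001 to 145340000, held 5 higher windows. There too F1 ifosfamide pool 1 was low, at 0.718 RPKM, with the other F1 ifosfamide pools at 1.52 to 2.03 RPKM. F2 ifosfamide pools had 1.02 to 1.90 RPKM, control pools 3 and 5 had 1.55 RPKM each, and the other control pools 0.382 to 0.638 RPKM. In both clusters the control pools thus stood at a low and a high level, the high one shared with most ifosfamide pools. In all, 19 higher and 0 lower windows lay between 145000001 and 145730000 on this chromosome.

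The chromosome 14 cluster, from 46564001 to 46684000, held 10 higher windows and was strongly covered. Its pool means were 5.48 to 10.0 RPKM in F1 ifosfamide, 5.34 to 9.80 RPKM in F2 ifosfamide and 2.88 to 7.78 RPKM in control pools, with control pools 3 and 4 inside the ifosfamide range. The shift was not limited to the members, since the other 97 windows over the minimum in this stretch had median ratios of 1.2 in F1 and 1.16 in F2. On chromosome 9 from 11674001 to 11764000, 7 higher windows had a split F1 ifosfamide group. Pools 1 to 3 had 1.29 to 2.28 RPKM and pools 4 to 6 had 0.549 to 0.597 RPKM. F2 ifosfamide pools had 0.889 to 1.83 RPKM, and the control range of 0.437 to 0.931 RPKM held F1 ifosfamide pools 4 to 6 and F2 ifosfamide pool 4. The 26 other windows of this stretch had median ratios of 1.02 and 1.01.

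A further cluster on chromosome 7, from 61426001 to 61597000, was the only one of the 5 largest higher clusters without overlap between groups. Its 4 windows had pool means of 1.04 to 1.38 RPKM in F1 ifosfamide, 1.11 to 1.44 RPKM in F2 ifosfamide and 0.643 to 0.863 RPKM in control pools. The 70 other windows over the minimum there had median ratios of 1.07 and 1.02. It lies 301 kb before the chromosome 7 window at 61898001, which heads the list of windows with no overlap, and 7 higher windows in all stood between 61000001 and 62000000. The 2 strongly covered chromosome 1 windows belong to a cluster of 3 from 11909001 to 11968000, in which the 45 other windows over the minimum had median ratios of 1.24 in F1 and 1.28 in F2.

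Lower clusters were small, with 1 of 4 windows and 8 of 3 windows. The one with most members, on chromosome 4 from 4851001 to 4946000, held 4 windows with pool means of 0.263 to 0.590 RPKM in F1 ifosfamide, 0.245 to 0.530 RPKM in F2 ifosfamide and 0.513 to 0.785 RPKM in control pools. On chromosome 5 from 69492001 to 69511000, 3 windows had 0.613 to 1.01 RPKM in F1 ifosfamide pools, 0.637 to 0.743 RPKM in F2 ifosfamide pools and 0.633 to 1.64 RPKM in control pools. Control pools 1 and 2 lay at 0.917 and 0.633 RPKM there and the other control pools at 1.48 RPKM or more, so the lower signal was shared by 2 control pools. The 8 other windows over the minimum in this stretch had median ratios of 0.814 in F1 and 0.738 in F2. In the other lower clusters such windows had median ratios of 0.966 to 1.07 in F1 and 0.919 to 1.05 in F2. The clusters of 3 windows on chromosomes 1, 14 and 16, from 175709001, 80968001 and 63681001, had median ratios of 0.644, 0.674 and 0.654 in F1 and 0.676, 0.644 and 0.571 in F2. The 4 left, on chromosomes 17, 18, 19 and 20, had median ratios of 0.604 to 0.668 in F1 and 0.572 to 0.674 in F2.

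**Figure D3:**
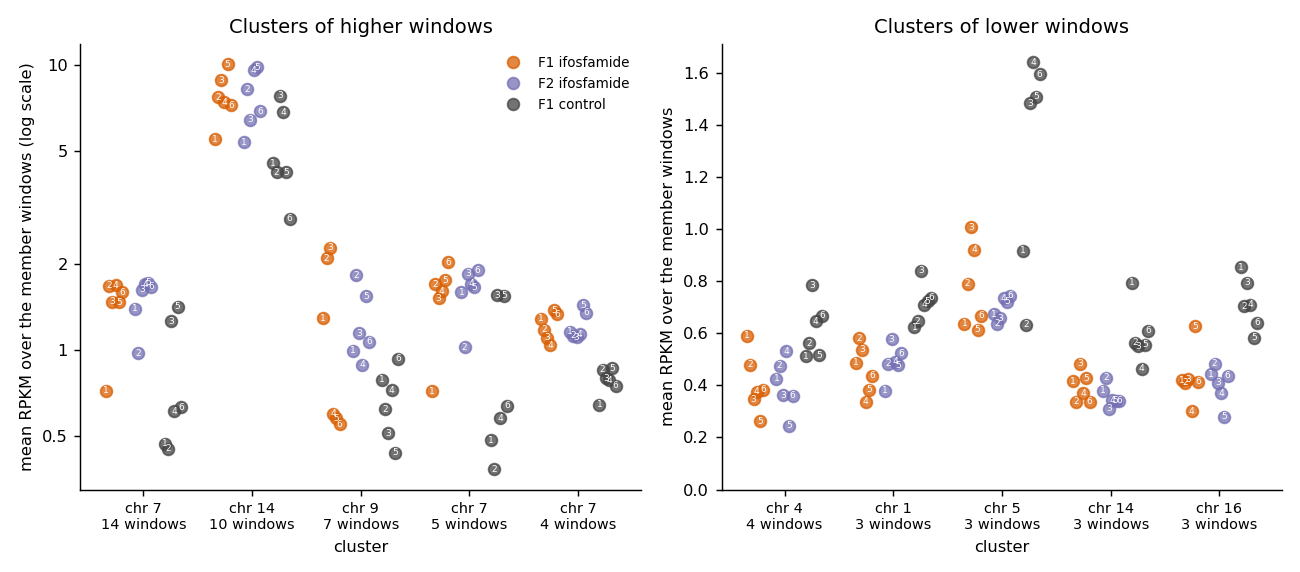
Mean RPKM over the member windows of a cluster, one point per pool with its number inside, for the 5 higher clusters with most members (left, log axis) and for the lower cluster of 4 windows with the first 4, in chromosome order, of the 8 lower clusters of 3 windows (right), each with F1 ifosfamide, F2 ifosfamide and F1 control from left to right. In the chromosome 7 clusters of 14 and 5 windows, control pools 3 and 5 sit at 1.26 to 1.55 RPKM among the ifosfamide pools and F1 ifosfamide pool 1 sits at 0.72 RPKM near the other controls.

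Windows around the members showed how far a shift reached. Around the higher windows in clusters, neighbouring windows that were not members had median log2 ratios of 0.24 in F1 and 0.22 in F2 at 2 kb, 0.20 and 0.16 at 10 kb, and 0.10 and 0.08 at 50 kb. Around the other higher windows the medians were 0.15 in F1 and 0.12 in F2 at 1 kb, where windows share reads, and 0.06 and 0.01 at 2 kb. All windows over the minimum that were not members had 0.03 and -0.01. Around the lower windows outside clusters the medians were -0.11 in F1 and -0.12 in F2 at 1 kb and 0.01 and -0.02 at 2 kb. Outside clusters the shift was thus seen in the member and its immediate neighbour, and at 2 kb it was within 0.03 of the level of other windows. The medians around clustered higher windows pool clusters that differed. Other windows within the cluster had median ratios of 1.2 in F1 and 1.16 in F2 on chromosome 14 and 1.24 and 1.28 on chromosome 1. The chromosome 7 clusters from 145556001 and 145302001 held 4 and 1 such windows, at 1.41 and 1.39 and at 1.07 and 1.42. On chromosomes 2, 9 and 18 and in the chromosome 7 cluster from 61426001 the ratios were 0.991 to 1.07 and 1.005 to 1.058.

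**Figure D4:**
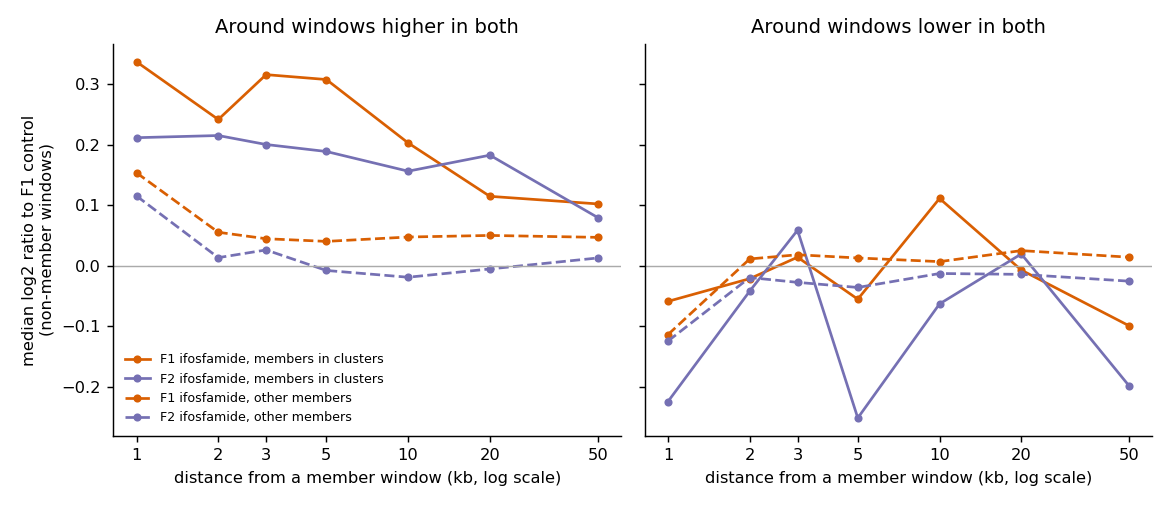
Median log2 ratio to the F1 control of non-member windows at a distance of 1 to 50 kb (log axis) from a member, around higher windows (left) and lower windows (right), for members in clusters (solid) and other members (dashed), in F1 ifosfamide (orange) and F2 ifosfamide (purple). Around clustered higher windows, pooled over clusters that differed, the medians are still 0.20 and 0.16 at 10 kb, whereas around other members they are near 0 from 2 kb on. The solid lines on the right rest on 12 to 25 windows a point.

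Whether the 2 ifosfamide generations differed at these windows is the 1 comparison that leaves out the control pools, although the same 12 pools helped to choose the windows. Few members differed. Of 936 higher windows tested, 3 were called at an adjusted p under 0.05 by edgeR's quasi-likelihood test, 2 higher and 1 lower in F2 ifosfamide. Over all 1062540 windows tested, 2.01% were called, 1.18% higher and 0.836% lower in F2. Of the 1515 lower windows, 963 passed the filter on low counts, and 0 of these were called by edgeR, with 12 (1.25%) at an unadjusted p under 0.05, against 15.8% of all windows tested, and 0 called by DESeq2. Over all windows tested, DESeq2 called 8210. Without F1 ifosfamide pool 4, 3 of 1060 lower windows were called, where 13306 of all 1102407 windows tested were. Without F2 ifosfamide pool 1 it was 1 of 1079, where 30775 of 1105142 were. A rule that asks both generations to lie on the same side favours windows with alike values, so the low share is not a result about the members. The median log2 difference of F2 over F1 ifosfamide was 0.01 in higher and 0.02 in lower windows. On the RPKM scale, F2 and F1 ifosfamide means were within 1.2-fold of each other in 889 higher windows (95.0%) and 1309 lower windows (86.4%). The rule favours this closeness too, and the share over all windows was not computed, so nothing is read from it.

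Both windows called higher in F2 are adjacent members of the large chromosome 7 cluster and share reads. At 145601001 to 145602000, F2 ifosfamide pools had 0.950 to 2.38 RPKM (median 2.02), F1 ifosfamide pools 0.380 to 1.64 RPKM (median 1.01) and control pools 0.190 to 1.31 RPKM (median 0.435). The F2 and F1 ifosfamide pools overlapped, with a log2 fold change of 0.82 (SE 0.19, adjusted p = 0.00674 by edgeR). The window from 145600001 had 1.00 to 2.56 RPKM (median 2.14) in F2 ifosfamide and 0.660 to 1.58 RPKM (median 1.02) in F1 ifosfamide pools (log2 fold change 0.77, SE 0.18, adjusted p = 0.00697). DESeq2 called neither, with adjusted p of 0.192 and 0.132. The window lower in F2 lies on chromosome 14 at 46330001 to 46331000, with 0.880 to 1.57 RPKM (median 0.985) in F2 ifosfamide, 1.06 to 2.38 RPKM (median 1.72) in F1 ifosfamide and 0.450 to 1.35 RPKM (median 0.700) in control pools. Its log2 fold change was -0.62 (SE 0.17, adjusted p = 0.0271). This call was lost with DESeq2 (adjusted p = 0.0659) and without any 1 of F1 ifosfamide pools 3 or 4 or F2 ifosfamide pools 1, 3, 4 or 6 (adjusted p 0.0597 to 0.133).

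Each generation was also fitted against the control, in comparisons that share the 6 control pools and that the rule used, so the counts are given only beside the background. In F1 ifosfamide against F1 control, 14 of 936 higher windows were called higher, where 0.00489% of 1043656 windows tested were. Of 1464 lower windows tested, 14 were called lower, where 0.0535% were. In F2 ifosfamide against F1 control, 26 of 936 higher windows were called higher (0.016% of 919249 windows tested), and 7 of 1237 lower windows tested were called lower (0.011%). Nothing is read from these shares. Single pools moved these counts by more than 1.5 times, and the number called over all windows moved the same way, so the swings are not particular to the members. In F1, with 51 windows called higher over all, the higher members called numbered 35 without F1 ifosfamide pool 1, 22 without F1 ifosfamide pool 4, 22 without control pool 1 and 24 without control pool 5, with 164, 87, 123 and 75 windows called higher over all. They numbered 5 and 9 without F1 ifosfamide pools 3 and 6, and 6 and 4 without control pools 2 and 6, with 17, 36, 22 and 12 over all. With 558 windows called lower over all, the lower members called numbered 23 without F1 ifosfamide pool 4 and 38 without control pool 1, with 848 and 1878 over all. They numbered 4 to 8 without F1 ifosfamide pools 3 or 6 or control pools 2, 3, 4 or 6, with 126 to 297 over all. In F2, with 147 windows called higher over all, the higher members called numbered 74 without F2 ifosfamide pool 1, 15 without F2 ifosfamide pool 4 and 12 without control pool 2, with 772, 57 and 41 over all. With 101 windows called lower over all, the lower members called numbered 31 without F2 ifosfamide pool 1 and 11 without control pool 6, with 672 and 317 over all. They numbered 3 to 4 without F2 ifosfamide pools 4, 5 or 6, with 19 to 32 over all.

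In both of these comparisons 5 higher and 2 lower members were called, which are named here after their values were seen. Over all 904952 windows tested in both, 7 (0.000774%) were called higher in both and 2 (0.000221%) lower in both, and nothing is read from the members' share. The higher ones were the chromosome 7 window at 61898001, 2 windows of the clusters at the end of chromosome 7, from 145310001 and 145647001, and 2 windows of the chromosome 14 cluster, from 46638001 and 46682001. At 46682001, F1 ifosfamide pools had 3.51 to 8.36 RPKM (median 5.48), F2 ifosfamide pools 3.32 to 7.18 RPKM (median 6.07) and control pools 1.78 to 5.16 RPKM (median 3.16). The groups overlapped there and in the other 3 cluster windows, and stood apart only at 61898001. The lower ones were the chromosome 7 window at 73275001 and a window on chromosome 9 at 119866001, where F1 ifosfamide pools had 0.310 to 0.980 RPKM (median 0.625), F2 ifosfamide pools 0.420 to 0.910 RPKM (median 0.685) and control pools 0.400 to 2.08 RPKM (median 1.49). In both lower windows at least 1 control pool lay within the ifosfamide range.

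The list of members depended on single pools. Only 107 higher windows (11.4%) and 223 lower windows (14.7%) met the rule with all 18 pools and with each of them left out in turn, and 18 and 11 of these had a control mean of 1 RPKM or more. Leaving out 1 pool gave 725 to 1781 higher and 1546 to 2685 lower windows, with both highest counts reached without control pool 5. Without control pool 6 there were 1673 higher windows. The lower count was also over 1.5 times the full one without control pools 1, 2 or 3, at 2363, 2468 and 2457. The split between directions depended on the scaling and on the limits of the rule. Of all members, 38.2% were higher on the RPKM scale. On TMM-scaled counts 23.6% were higher, and 23.7% when the RPKM minimum was kept. With a control minimum of 1 RPKM the split reversed, to 59.0% higher. With ratio limits of 1.5 and 0.67 it was 26.9%, and with 1.3 and 0.77 it was 43.0%. Leaving out 1 pool gave 31.2% to 43.3%.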

How the data were processed

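MeDIP-seq libraries of 6 F1 ifosfamide, 6 F2 ifosfamide and 6 F1 control pools were used, 18 of the 34 libraries in the labels. The 16 libraries of F0 males and of the F2 control lineage were not analysed here. The submitters' processing notes name Bowtie2, SAMtools, Trimmomatic, FastQC and edgeR and the Rnor_6.0 build, with versions not given in the sources used here. Per the file headers, the authors deposited read counts per 1 kb window and library and, beside them, RPKM values, rounded to 2 decimals. The authors' deposited fold changes and p-values were not used. Both tables hold the same 6 control columns, with identical values, and were joined by position.

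Group means of RPKM over 6 pools chose the windows, with the limits given at the start of the report. The members, lists and rules were chosen with earlier results of these data known. For the comparisons, edgeR 4.0.16 (R 4.3.3) was fitted to the deposited counts, with TMM normalization, a filterByExpr minimum count of 10 and the two-sided quasi-likelihood test, on the 12 pools of a comparison without covariates, with Benjamini-Hochberg adjustment over all windows tested. DESeq2 1.42.0 was an alternative. Other alternatives were the control minimum, the ratio limits, TMM-scaled counts, group medians, DESeq2's size factors, the count filter, the replicate number as a block and leaving out each pool. TMM-scaled counts with the RPKM minimum were added after the data were seen. Deviations of same-numbered pools correlated weakly or not at all (r -0.166 to 0.0805). Pools of F1 ifosfamide correlated best with their own number in 0 of 6 pairs with either other group. For F2 ifosfamide with F1 control it was 4 of 6, so whether the numbers pair these pools was not settled. The fit of F2 against F1 ifosfamide was tested on simulated data of 1057672 windows. It called 1 of 66 windows changed 1.4-fold, 34 of 58 changed 2-fold and 53 of 55 changed 3-fold, with 6 false calls. The labels do not say that pools came from separate litters, so p-values measure the spread between pools.

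Named windows are, per direction, the 8 regions (members at most 1 kb apart, 1 window each) with all 12 ifosfamide pools beyond all 6 control pools and the largest shifts, ranked by the smaller of the 2 absolute log2 ratios, the 3 members of highest control signal, the 5 clusters with most members (ties in chromosome order), and up to 5 members called in F2 against F1 ifosfamide. After their values were seen, the chromosome 1 cluster and the windows called against the control in both generations were named too. Neither a genome nor an annotation of Rnor_6.0 was used here, so windows carry coordinates without gene names or sequences.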

Additional observations from a re-analysis of the deposited data

Results flagged for a closer look

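In 105 groups of 6 pools, 4 had a pool whose distance from the others exceeded Dixon's limit, where chance flags about 1 in 20. An F2 ifosfamide pool had 1.7 RPKM at chromosome 17, 43009001, above the other F2 pools. An F1 ifosfamide pool had 0.31 RPKM at chromosome 6, 49693001, below the other F1 pools. In the chromosome 7 cluster from 145556001, F1 ifosfamide pool 1 averaged 0.719 RPKM, below the other F1 ifosfamide pools. In the chromosome 7 cluster from 145302001, an F2 ifosfamide pool averaged 1.02 RPKM, below the other F2 ifosfamide pools. These values are given without an explanation.

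F2 and F1 ifosfamide differed by edgeR's quasi-likelihood test in 3 of 936 higher windows, where 2.01% of all windows tested were called. The log2 fold changes of F2 over F1 were 0.82 at chromosome 7, 145601001 and 0.77 at chromosome 7, 145600001, which are adjacent windows, and -0.62 at chromosome 14, 46330001. DESeq2 called none of the 3.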

How the results depend on the processing

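The numbers of members followed the limits of the rule. Higher and lower windows numbered 7482 and 11983 with a control minimum of 0.25 RPKM, 79 and 55 with 1 RPKM, 201 and 546 with ratio limits of 1.5 and 0.67, 4492 and 5961 with 1.3 and 0.77, and 1900 and 3451 with group medians. TMM-scaled counts gave 321 higher windows, and 621 with the RPKM minimum kept. Leaving out 1 pool gave 725 to 1781 higher and 1546 to 2685 lower windows. The share of members with another at 2 to 10 kb was 3.23% to 6.82% of higher and 0.951% to 2.52% of lower windows with 1 pool left out, and 12.7% and 3.64% with the 1 RPKM minimum. The matching share of other windows was not computed with a pool left out or with the 1 RPKM minimum. With another at 2 to 5 kb stood 2.67% of higher windows, against 0.385% of other windows over the minimum. At 2 to 100 kb it was 15.0% of higher windows against 7.90%, and 13.9% of lower windows against 11.9%.

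In F2 against F1 ifosfamide, DESeq2 called 0 of the higher windows, with 8210 called over all windows. Without a count filter, 1 of the lower windows was called, with 16699 over all. In F1 ifosfamide against control, DESeq2 called 2 higher and 0 lower members (18 and 333 over all windows), a minimum count of 30 left 3 and 1 (10 and 186 over all), and no filter gave 41 and 25 (172 and 866 over all). In F2 ifosfamide against control, DESeq2 called 3 and 0 (43 and 9 over all), a minimum count of 30 left 6 and 0 (31 and 24 over all), and no filter gave 12 lower members (112 over all). Leaving out 1 pool gave 2 to 4 higher and 0 to 3 lower windows in F2 against F1 ifosfamide, with 8283 to 35802 over all windows. It gave 4 to 35 and 4 to 38 in F1 against control, and 12 to 74 and 3 to 31 in F2 against control. The cause of these changes was not tested. With the replicate block, 2 higher and 0 lower windows were called in F2 against F1 ifosfamide, with 13056 over all windows. In F1 against control it was 13 and 9 (44 and 336 over all), and in F2 against control 50 and 13 (362 and 257 over all). The block ended the call at chromosome 14, 46330001 (adjusted p = 0.0592 by edgeR). Pools correlated best with their own number in 0, 0 and 4 of 6 pairs in these comparisons. The directions of the 3 windows called in F2 against F1 ifosfamide were kept under every alternative run.

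A median of 14 to 15 counts per control pool limits the precision of a single window. Control and F2 ifosfamide pools differ in generation. Window signal holds copy number and CpG density besides methylation. The deposited tables give no read-level quality, so reads that map to several places were not examined.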
